A study of Mus musculus with 20 samples.

Results

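Dbp, Tef and Hlf, the PAR bZIP activators, and Nfil3, the repressor that binds the same DNA element, were followed through the day in dermal lymphatic endothelial cells (LECs). The genes were found by their symbols, and all 4 were among the 24062 genes counted in each of 20 RNA-seq libraries and among the 19209 that passed the filter on low counts. LECs had been sorted as CD31+podoplanin+ cells from the ear skin of wild type male mice labelled C57BL/6, C57BL/6N in the study's methods, at postnatal day 56. Ears were taken at zeitgeber time (ZT, hours after lights on) 1, 7, 13 and 19, with 5 libraries per time point and the ears of a pair of mice pooled in each. The groups shared genotype, strain, age and tissue, none had been treated, and light cabinets on shifted light-dark cycles served to collect time points together. Every cell type left in the sort contributed RNA, so fewer cells of a type and less RNA per cell cannot be told apart.

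The PAR bZIP factors bind the D-box, a DNA element of clock-controlled genes, and raise transcription there. In liver and other tissues Dbp is transcribed under CLOCK and BMAL1 through E-boxes, and its RNA is among those with the deepest daily swing. Tef and Hlf belong to the same family and share many of its targets, including genes of drug and vitamin B6 metabolism. Nfil3, also known as E4BP4, occupies the D-box without activating and is controlled through the RORE elements that REV-ERB proteins silence, so that its RNA peaks in antiphase to Dbp in many tissues. In immunity Nfil3 is also known as a factor that natural killer and other innate lymphoid cells require.

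The libraries held between 4475111 and 42002363 counts on genes, with a median of 9379794, and 12.7% to 81.6% of the reads that fell on genes or on no feature were on genes. That share was over 50% in 6 libraries, of which 4 were from ZT19, 1 from ZT7 and 1 from ZT13. All 8 LEC markers, among them Prox1 and Lyve1, had counts in every library, and their summed normalized count was 45686 to 113703. The 4 blood endothelial markers (Flt1, Vwf, Plvap and Emcn) summed to 3898 to 6683 at ZT1 and 4347 to 8448 at ZT7. At ZT13 they summed to 5320 to 14749 and at ZT19 to 4918 to 9582. None of the 4 passed the test among the time points. Keratinocyte markers were also present, and 4 of the 8 differed among the time points, as 0.422% of all tested genes did. Their summed normalized count was lowest at ZT13, at 9756 to 28770, and highest at ZT19, at 86772 to 176857. It was 31631 to 65904 in the ZT1 libraries and 56161 to 169792 in those of ZT7. Fibroblast markers summed to 4391 to 15904 at ZT1, 814 to 3988 at ZT7, 259.8 to 8210 at ZT13 and 978 to 11102 at ZT19. Every ZT1 library thus lay above every ZT7 library, although none of the 6 markers passed the test among the time points. Counting error alone is wide only at low counts, and the lowest member count in any library was 67, for Nfil3.

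Dbp lies on the plus strand of chromosome 7 (GRCm38, chr7:45705088-45710203), Tef on the plus strand of chromosome 15 (chr15:81802421-81826863), Hlf on the minus strand of chromosome 11 (chr11:90336536-90390895) and Nfil3 on the minus strand of chromosome 13 (chr13:52967209-52981073). All are protein-coding, with 5 annotated transcripts for Dbp, 10 for Tef, 6 for Hlf and 1 for Nfil3. At its 3′ end 539 exon bases of Dbp, 18.0% of its exons, are shared with Sphk2 on the opposite strand. As the library kit does not mark strand, reads there cannot be assigned to either gene. The fitted log2 difference of Sphk2 was -0.40 from ZT7 to ZT13 (SE 0.52, edgeR quasi-likelihood test, adjusted p = 1.0) and 0.50 from ZT7 to ZT19 (SE 0.52, adjusted p = 0.619), and the part of the shared bases in the counts of Dbp was not tested.

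Promoters were searched for the elements that link these genes to the clock. The letters were CACGTG (E-box), CACGTT (E'-box), TTATGTAA or TTACGTAA (D-box) and TGACGTCA (cyclic AMP response element), on both strands, in windows from 250 bases before to 50 bases after the RefSeq start sites used here (2 for Tef and 1 for each other member). The E-box and E'-box share all letters but the last. Only Tef held an E-box, once in each of its 2 windows, at chr15:81802546-81802551 and chr15:81811276-81811281, beside 7.15% of 32851 windows. Hlf held a cyclic AMP response element, beside 1.79% of windows. No member window held the E'-box (4.68% of windows) or a D-box (1.06%), and the windows of Dbp and Nfil3 held none of these letters. The stretches before 1 of the start sites of Tef and before that of Hlf are shown with those elements in capitals. That of Dbp is shown because its RNA had the strongest daily pattern of the 4. The stretches are from RefSeq on GRCm38.p6, and bases in annotated exons of the gene itself were left out. This shortens that of Dbp to chr7:45704997-45705087, plus strand. The same rule leaves no bases before the other Tef start site. The E-box at chr15:81802546-81802551 thus lies in annotated Tef exon and is not shown. The Tef stretch is chr15:81811164-81811413, plus strand, and the Hlf stretch is chr11:90390918-90391167, minus strand.
Dbp: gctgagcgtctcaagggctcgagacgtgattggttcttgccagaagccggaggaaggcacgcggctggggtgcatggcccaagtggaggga
Tef: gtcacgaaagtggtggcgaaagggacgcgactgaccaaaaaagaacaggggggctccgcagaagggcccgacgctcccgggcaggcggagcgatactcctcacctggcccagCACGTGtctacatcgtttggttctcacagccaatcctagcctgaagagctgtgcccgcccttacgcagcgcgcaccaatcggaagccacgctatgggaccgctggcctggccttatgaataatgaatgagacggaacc
Hlf: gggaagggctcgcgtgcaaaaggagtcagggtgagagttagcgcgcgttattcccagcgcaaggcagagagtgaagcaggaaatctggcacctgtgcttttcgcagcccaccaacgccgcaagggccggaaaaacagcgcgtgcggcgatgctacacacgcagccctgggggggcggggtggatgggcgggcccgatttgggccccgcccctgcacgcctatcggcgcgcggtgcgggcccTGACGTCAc

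Dbp, the activator best known as an output of the clock, was the member with the clearest daily pattern. Its normalized count (TMM-scaled reads per gene, not corrected for length) was 246, 305, 211, 203 and 220 in the 5 libraries of ZT1. At ZT7 it was 787, 898, 891, 738 and 516. At ZT13 it was 411, 385, 440, 482 and 565, and at ZT19 it was 258, 238, 193, 107 and 164. Every ZT7 and every ZT13 library thus lay above every library of ZT1 and of ZT19, whereas ZT7 and ZT13 overlapped through 1 library each, as did ZT1 and ZT19 more broadly. Among all tested genes, 0.578% separated in this way upwards from ZT1 to ZT7, 0.489% upwards from ZT1 to ZT13, 1.02% downwards from ZT7 to ZT19 and 0.614% downwards from ZT13 to ZT19.

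The fitted log2 difference of Dbp was 1.69 from ZT1 to ZT7 (SE 0.31, edgeR adjusted p = 0.129), -1.99 from ZT7 to ZT19 (SE 0.31, adjusted p = 0.0232) and -1.25 from ZT13 to ZT19 (SE 0.31, adjusted p = 0.0622). The fall from ZT7 to ZT19 was the only one of 24 member and pair combinations that passed, with the smallest p of all genes in that pair, where 0.0104% of genes fell. From ZT1 to ZT13 the difference was 0.95 (SE 0.31, adjusted p = 0.582), from ZT7 to ZT13 it was -0.75 (SE 0.31, adjusted p = 1.0) and from ZT1 to ZT19 it was -0.30 (SE 0.31, adjusted p = 0.589). Dbp differed among the 4 time points (edgeR quasi-likelihood test, adjusted p = 0.00409) and was 1 of 81 genes that did (0.422%), with the seventh smallest p. The fall from ZT7 to ZT19 did not pass when 1 of 8 libraries was left out (ZT1 replicate 1, ZT7 replicates 1, 2, 3 and 4, ZT13 replicate 3, ZT19 replicates 3 and 5), with adjusted p from 0.0523 to 0.111. Over all 20 such omissions the difference stayed between -2.12 and -1.84. It did not pass either with only the ZT7 and ZT19 libraries in the fit (-1.96, edgeR adjusted p = 0.183).

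**Figure D1:**
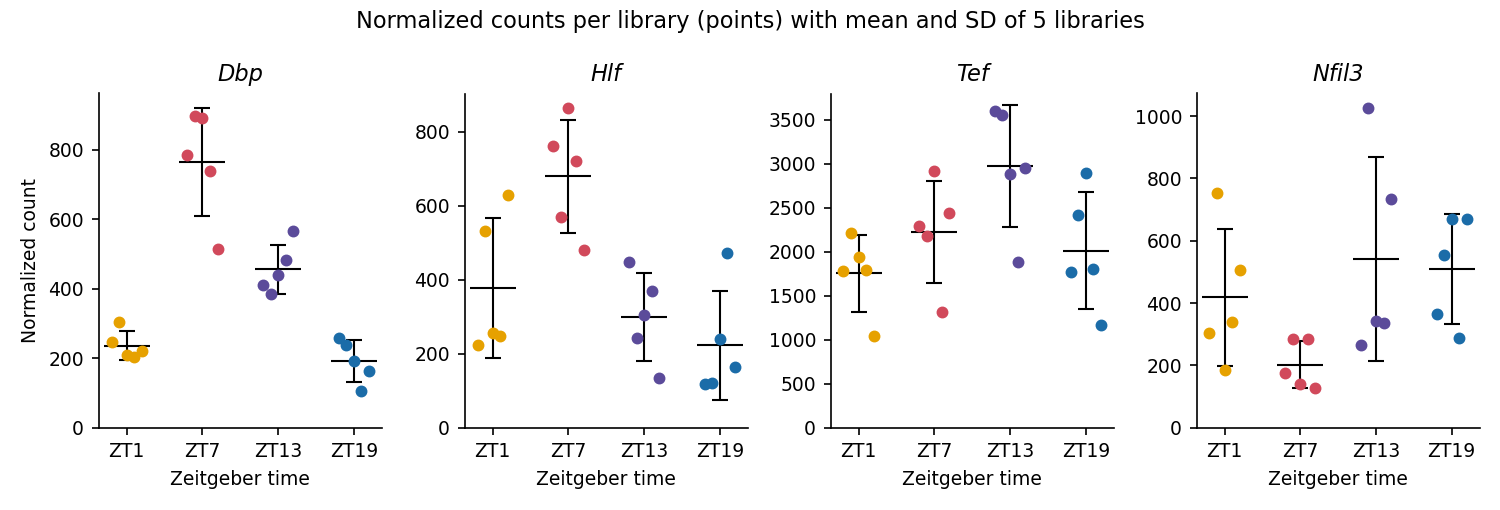
Normalized counts (vertical axes, from 0, a scale of its own for each gene) of Dbp, Hlf, Tef and Nfil3 at ZT1, ZT7, ZT13 and ZT19. Points are libraries, and bars are the mean and SD of 5. The ZT7 libraries of Dbp sit between 516 and 898, all above those of ZT1 and ZT19, while those of Nfil3 lie at 129 to 285, below every ZT19 library.

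Hlf, the PAR factor also known as a fusion partner in leukaemia, was highest at ZT7. Its normalized count at ZT1 was 224, 530, 256, 249 and 630. At ZT7 it was 761, 568, 863, 720 and 481. At ZT13 it was 447, 242, 305, 370 and 136, and at ZT19 it was 118, 120, 240, 472 and 165. All ZT7 libraries lay above all of ZT13 (0.750% of genes separated downwards from ZT7 to ZT13) and above all of ZT19 (1.02%), but they overlapped ZT1. The fitted log2 difference was -1.61 from ZT7 to ZT19 (SE 0.42, edgeR adjusted p = 0.107), -1.18 from ZT7 to ZT13 (SE 0.42, adjusted p = 1.0) and 0.85 from ZT1 to ZT7 (SE 0.42, adjusted p = 0.999). Neither these nor the test among the 4 time points passed (edgeR adjusted p = 0.173). DESeq2 called Hlf (adjusted p = 0.0134) among 3.54% of the 16937 genes it gave an adjusted p, as did edgeR when ZT19 replicate 4, its highest ZT19 library, was left out (adjusted p = 0.0473).

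Tef, the third PAR activator, had the smallest fitted difference between its highest and lowest time points of the 4 members, 0.76 on the log2 scale. Its normalized count at ZT1 was 1782, 2216, 1944, 1792 and 1039. At ZT7 it was 2289, 2186, 2918, 1322 and 2437. At ZT13 it was 3598, 3559, 2890, 1890 and 2952, and at ZT19 it was 1769, 2419, 2898, 1802 and 1166. All time points overlapped, and 4 of 5 libraries of ZT13 were above every library of ZT1. That difference, from ZT1 to ZT13, did not pass (SE 0.32, edgeR adjusted p = 0.772), and the test among the 4 time points did not pass (edgeR adjusted p = 0.449).

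Nfil3, the repressor, had its lowest values where Dbp and Hlf had their highest. Its normalized count at ZT1 was 305, 753, 186, 340 and 508. At ZT7 it was 176, 284, 142, 285 and 129. At ZT13 it was 266, 1028, 343, 336 and 735, and at ZT19 it was 365, 553, 669, 288 and 671. All libraries of ZT19 were above all of ZT7, the closest pair being 288 and 285 (0.921% of genes separated upwards in this pair), and 4 of 5 libraries of ZT13 were as well. The fitted log2 difference from ZT7 was 1.32 to ZT19 (SE 0.43, edgeR adjusted p = 0.112) and 1.41 to ZT13 (SE 0.43, adjusted p = 0.559), and from ZT1 to ZT7 it was -1.04 (SE 0.43, adjusted p = 0.899). No comparison of Nfil3 passed, including that among the 4 time points (edgeR adjusted p = 0.239), where it ranked 1334 of 19209 genes by p and 15.7% of genes had an unadjusted p under 0.05.

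**Figure D2:**
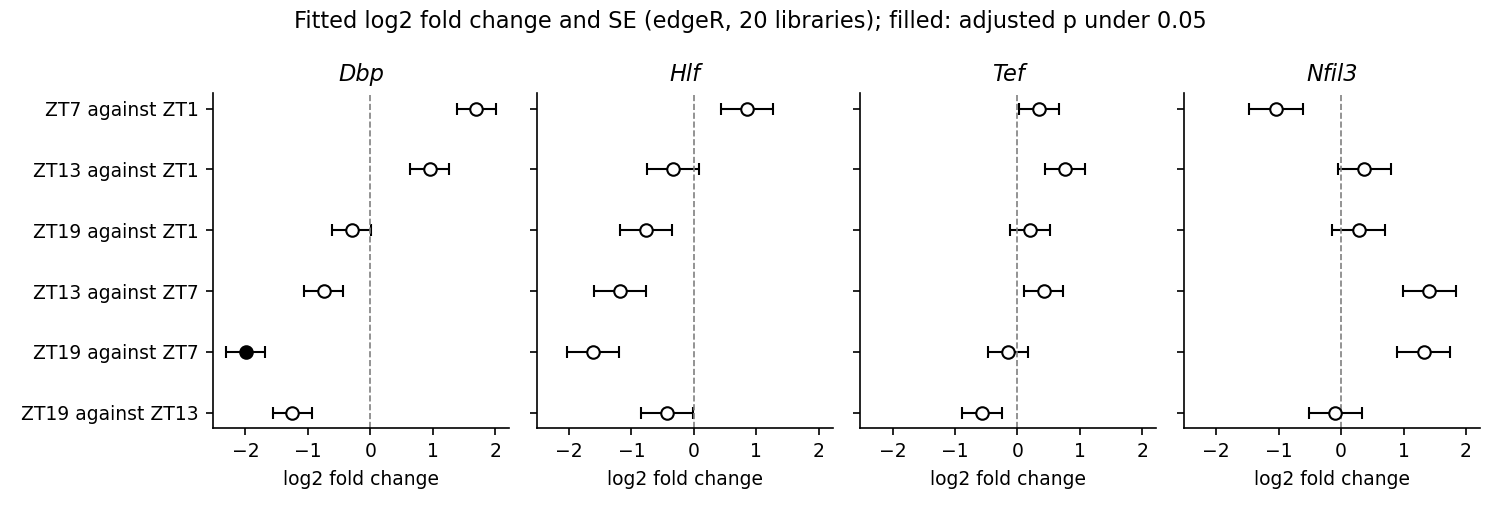
Fitted log2 fold change (horizontal axis) with its SE for each of 6 pairs of time points (rows) and each member. The filled point, Dbp at ZT19 against ZT7 (-1.99), is the only one with an adjusted p under 0.05. Hlf has the same sign as Dbp in every pair but ZT1 to ZT13 (-0.33 against 0.95). Nfil3 has the opposite sign to Dbp except from ZT1 to ZT13 (0.37) and from ZT13 to ZT19 (-0.09 against -1.25).

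A 24-h cosine was fitted to each member to summarise the order of the peaks. Hlf peaked at 6.22 h (SE 0.98) with a log2 amplitude of 0.82 (SE 0.21), and Dbp at 8.69 h (SE 0.55) with an amplitude of 1.10 (SE 0.16). Tef followed at 12.3 h (SE 1.57) with an amplitude of 0.39 (SE 0.16), and Nfil3 at 17.9 h (SE 1.25) with an amplitude of 0.69 (SE 0.22). The median amplitude over all tested genes was 0.52. Dbp was 1 of 6 genes (0.0312%) that passed the test of the curve and had the smallest p of all (edgeR adjusted p = 0.0126). Hlf (adjusted p = 0.327), Nfil3 (adjusted p = 0.524) and Tef (adjusted p = 0.559) did not pass, so their peak times describe curves that were not called. With 4 time points a 24-h curve can be told only in part from sharper or double peaks, and departures from the curve were not tested. Differences in peak time between members were not tested either. The curve of Dbp did not pass without ZT7 replicate 3 (edgeR adjusted p = 0.0536) or without the 6 libraries with over 50% of reads on genes (adjusted p = 0.0647).

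The ratio of activator to repressor RNA in the same library shows how far the reads of the 2 genes moved apart. A scaling factor common to both genes nearly cancels in it. Protein and binding at the D-box were not measured. The log2 ratio of Dbp to Nfil3 at ZT7 was 2.16, 1.66, 2.64, 1.37 and 2.0. At ZT19 it was -0.50, -1.21, -1.79, -1.42 and -2.03. The sign of the ratio thus differed between these time points in all 10 libraries. At ZT1 the ratio was between -1.30 and 0.17, below every ZT7 library, and at ZT13 it was between -1.41 and 0.63, also below every ZT7 library. In time order, mean and SD were -0.68 ± 0.62, 1.96 ± 0.49, -0.06 ± 0.85 and -1.39 ± 0.59 (n = 5 each).

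The log2 ratio of Hlf to Nfil3 was likewise above 0 in all 5 libraries of ZT7 (1.0 to 2.60) and in 1 of 5 at ZT19 (-2.20 to 0.71), and ZT7 again overlapped no other time point. That of Tef to Nfil3 was above 0 in all 20 libraries, but the 0 of these ratios marks equal reads and not equal levels per length, and per kb of exon Tef was above Nfil3 in 16 libraries. The ratio had means of 2.18 ± 0.91, 3.49 ± 0.91, 2.62 ± 0.80 and 1.99 ± 0.70 (SD, n = 5) at ZT1, ZT7, ZT13 and ZT19, and its time points overlapped. As Nfil3 itself was lowest at ZT7, many genes separated in their ratio to it. It was higher at ZT7 than at ZT1 in all libraries for 2.07% of the other tested genes, and lower at ZT13 than at ZT7 for 7.27% and at ZT19 than at ZT7 for 11.0%. A separation of the ratio is thus much more common among genes than one of Dbp alone, and no test was made on it.

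**Figure D3:**
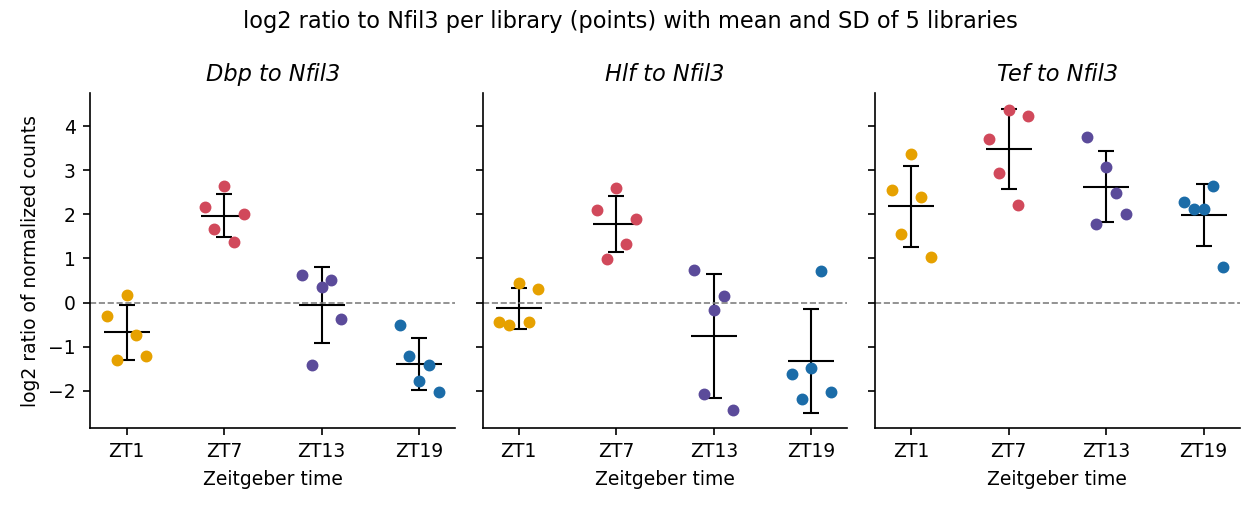
log2 ratio of normalized counts of Dbp, Hlf and Tef to Nfil3 (vertical axis) by time point. Points are libraries, bars are mean and SD of 5, and the dashed line marks equal counts. For Dbp all ZT7 libraries lie above the line (1.37 to 2.64) and all ZT19 libraries below it (-2.03 to -0.50).

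Levels of the members were compared per kb of annotated exon (2.993 kb for Dbp, 7.867 for Tef, 6.681 for Hlf and 2.026 for Nfil3). Over the 20 libraries Tef was the most abundant, at 285 ± 92.0 normalized counts per kb (SD), followed by Nfil3 at 206 ± 120, Dbp at 138 ± 82.9 and Hlf at 59.1 ± 33.9. Tef was above Hlf in all 20 libraries and Dbp was above Hlf in 18. The neighbours Tef and Nfil3 changed places in 4 libraries, and Nfil3 and Dbp in 6. The order itself depended on the hour: Dbp was above Nfil3 in all 5 libraries of ZT7, at 256 ± 52.0 against 100.2 ± 37.7 per kb, and in 0 of 5 at both ZT1 and ZT19, and at ZT19 Nfil3 stood at 251 ± 86.8 and Dbp at 64.1 ± 20.1. At ZT7 the per kb level of Hlf was 102 ± 22.9, near that of Nfil3, and Hlf exceeded Nfil3 in 3 of 5 libraries.

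The members also differed in how closely replicate libraries matched. The SD of the log2 normalized count within time points was 0.34 for Dbp, 0.43 for Tef, 0.66 for Hlf and 0.68 for Nfil3, against a median of 1.25 over all tested genes. Of 2733 genes within 0.5 log2 units of the level of Dbp, 0.256% had a lower SD, and the median among them was 0.68. Hlf and Nfil3, at a similar level, lay near the middle of their neighbours, with 42.2% and 51.7% of such genes lower, and for Tef the share was 19%. The fitted differences of Hlf and Nfil3 carry an SE of 0.42 to 0.43, and those of Dbp one of 0.31. Those of Tef carry an SE of 0.32, near that of Dbp, although the SD of Tef was higher.

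Hlf was lower in the libraries with a high share of reads on genes. In the 6 libraries with a share over 50% its normalized count was 118 to 568 with a median of 150.2, and in the other 14 it was 224 to 863 with a median of 459. At ZT13 the library with the highest share (79.9%) had the lowest Hlf, 136, and at ZT19 the same held (81.6%, 118), while the ZT19 library with the lowest share (35.0%) had the highest, 472. The other time points showed this order in part or not at all. At ZT1 the library with the lowest share (20.2%) had the highest Hlf, 630, but that with the highest share (29.5%) ranked second, at 530. At ZT7 the library with the lowest share (12.7%) had the lowest Hlf, 481, below the 568 of the library with the highest. Nfil3 went the other way, with a median of 611 in the 6 libraries and 296 in the others, a split that partly follows the time point. Within time points the library with the highest share ranked 1, 2, 2 and 4 from the highest Nfil3 in time order (753, 284, 735 and 365). With the share as a covariate the log2 difference from ZT7 to ZT19 was -1.09 for Hlf (edgeR adjusted p = 0.297) and 0.80 for Nfil3 (adjusted p = 0.643), smaller than without it, and neither was called. Without the 6 libraries it was -0.55 for Hlf and 0.69 for Nfil3. That leaves a single ZT19 library, assumed to vary like the other time points.

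Dbp was highest, at each time point, in the library with the highest share of reads on genes (305, 898, 565 and 258 in time order). Of the 6 libraries over 50%, 4 were from ZT19, so the share and the time point are partly confounded. With the share as a covariate the difference of Dbp from ZT7 to ZT19 was -2.35 (edgeR adjusted p = 0.00836), and those from ZT1 to ZT7 (1.67, adjusted p = 0.0247) and from ZT13 to ZT19 (-1.51, adjusted p = 0.0385) passed as well. Without the 6 libraries Dbp still differed among the time points (adjusted p = 0.0473), but its curve did not pass, and the difference from ZT7 to ZT19 was -2.74 (adjusted p = 0.435). A keratinocyte score, the mean over the 8 markers of each library's deviation in log2 level, was used as a further covariate. With it Dbp also differed among the time points (edgeR adjusted p = 0.0301). For Hlf the log2 difference was then -0.44 from ZT7 to ZT13 (-1.18 without it), -1.69 from ZT7 to ZT19 (-1.61) and -1.26 from ZT13 to ZT19 (-0.43). For Nfil3 these were 0.57 (1.41), 1.30 (1.32) and 0.73 (-0.09), and none of the 6 passed with or without the score.

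**Figure D4:**
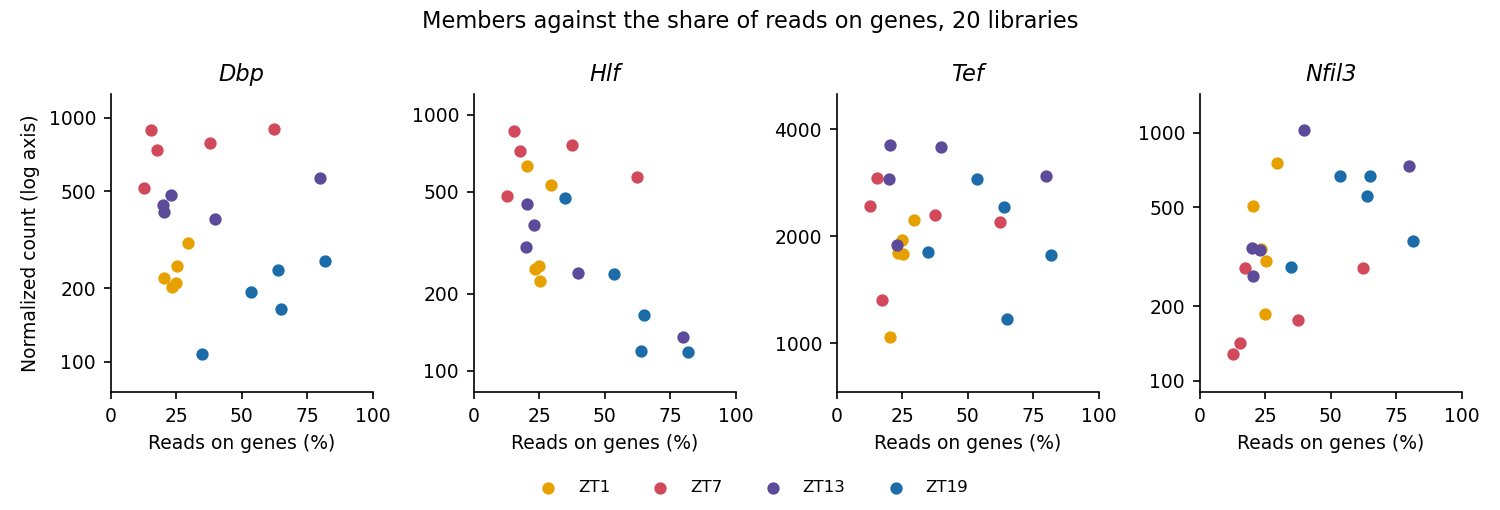
Normalized count of each member (vertical axes, log scale) against the percentage of reads on genes (horizontal axis) in 20 libraries, coloured by time point. Hlf lies between 118 and 240 in the 4 ZT19 libraries above 50% and at 472 in the ZT19 library at 35.0%, whereas Dbp at ZT19 is at 107 in the library at 35.0% and at 258 in the library at 81.6%.

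The genes most like each member over the 20 libraries were found by Pearson's r of log2 normalized counts, given here as a description, since the libraries share time points, depth and share of reads on genes. For Dbp they were Tm6sf1 (r = 0.72), Fgd6 (0.70), Foxc2 (0.68), which encodes a transcription factor of lymphatic valves, Esp1 (0.66) and Nap1l5 (0.65). None of these passed the test among the time points. Hlf was most like Cxcl9 (0.82), which encodes an interferon-induced chemokine, Triml1 (0.81), Cd38 (0.81), Nwd2 (0.80) and Serpinb6b (0.79), each with a mean normalized count below 118, the lowest value of Hlf. Tef was most like Apobec3 (0.84), Cbx2 (0.79), Sh3tc1 (0.76), Ankfy1 (0.76) and Sema6b (0.75), and Nfil3 most like Naa60 (0.82), Flot1 (0.81), Timp3 (0.80), which encodes a metalloproteinase inhibitor, Tppp3 (0.79) and Mob2 (0.79). Within time points r of Dbp with its 5 genes lay between -0.16 and 0.48, whereas it was 0.59 or more for the genes of the other members. No member was among the 5 of another.

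Genes with D-box control known from other tissues were taken as a list of 17, all of which were tested. None passed among the 4 time points or for the 24-h curve with edgeR (81 and 6 of 19209 genes passed), and 6 of 17 had an unadjusted p under 0.05 among the time points (15.7% of all genes) and 5 of 17 for the curve (9.23%). DESeq2 called Nr1d2 and Per3 in both tests, 2 of the 15 genes it gave an adjusted p among the time points, where it called 3.54% of all genes, and 2 of 12 for the curve, where it called 0.595%. Per3, a clock gene, is named here for that call. The median log2 amplitude was 0.61, also with Cyp2a4 at 3 counts in each ZT19 library, against 0.52 over all genes. The gene with the smallest p among the time points was Nr1d2, which encodes the repressor REV-ERB beta, with mean normalized counts from ZT1 to ZT19 of 889 ± 220, 1340 ± 323, 1396 ± 439 and 694 ± 265 (SD, n = 5, edgeR adjusted p = 0.227) and a curve that peaked at 9.30 h (SE 1.08). Cry1, the clock repressor with both D-boxes and ROREs, was highest at ZT19, at 768 ± 479 against 271 ± 137 at ZT7 (SD, n = 5, edgeR adjusted p = 0.107 for this pair and 0.237 among the time points). Cyp2a4, a steroid hydroxylase near-identical to Cyp2a5, was at 0 counts in all 5 ZT19 libraries, where 3 counts per library is the limit that a count of 0 allows, and at 0 to 42 counts in the others. Reads can be split between these 2 copies, and it was not called (edgeR adjusted p = 0.236).

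Core clock genes and genes controlled through E-boxes, the element that drives Dbp, were a list of 16, of which 8 are also on the D-box list. With edgeR 0 of 16 passed either test, 9 had an unadjusted p under 0.05 among the time points (15.7% of all genes) and 8 for the curve (9.23%), and the median log2 amplitude was 0.59. DESeq2 called 3 of 16 among the time points (3.54% of all genes) and 2 of the 15 with an adjusted p for the curve (0.595%). Bhlhe41, which encodes the repressor DEC2, had mean normalized counts of 441 ± 257, 387 ± 221, 198 ± 129 and 115 ± 12.4 from ZT1 to ZT19 (SD, n = 5, edgeR adjusted p = 0.195). Arntl encodes BMAL1, the activator of E-boxes. It was lowest at ZT13, at 112 ± 76.9, and stood at 389 ± 149 at ZT1 (SD, n = 5, edgeR adjusted p = 0.487 for this pair and 0.224 among the time points). Its curve peaked at 23.6 h (SE 1.03). The unadjusted edgeR p of Arntl was 0.0107 among the time points and 0.00678 for the curve.

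The C/EBP proteins are a further bZIP family whose recognition sequence resembles the D-box. Of 6 genes 5 were tested (Cebpe was not), and 1, Cebpd, passed both tests, which 0.422% of all genes passed among the time points and 0.0312% for the curve. Cebpd had mean normalized counts of 755 ± 105, 1351 ± 371, 2748 ± 1121 and 1415 ± 185 from ZT1 to ZT19 (SD, n = 5, edgeR adjusted p = 0.0152), and rose from ZT1 to ZT13 by a log2 difference of 1.86 (SE 0.31, edgeR adjusted p = 0.0166), as 0.0156% of genes did. Its curve had a log2 amplitude of 0.93 (SE 0.15) and peaked at 13.1 h (SE 0.63, adjusted p = 0.0333). Cebpd was not called among the time points without ZT13 replicate 2 or 4, without the 6 high-share libraries or with the keratinocyte covariate. Its curve did not pass when 1 of 11 libraries was left out (any of ZT1, ZT7 replicates 3, 4 and 5, ZT13 replicates 2, 4 and 5). Cebpa was at a mean normalized count of 783 ± 342 at ZT1 and 101 ± 56.8 at ZT19 (SD, n = 5) and Cebpb at 1944 ± 515 and 4229 ± 1370, and neither passed with edgeR among the time points (adjusted p = 0.128 and 0.234). DESeq2 called Cebpa and Cebpd among the time points, where it called 3.54% of all genes, and Cebpd for the curve (0.595%).

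**Figure D5:**
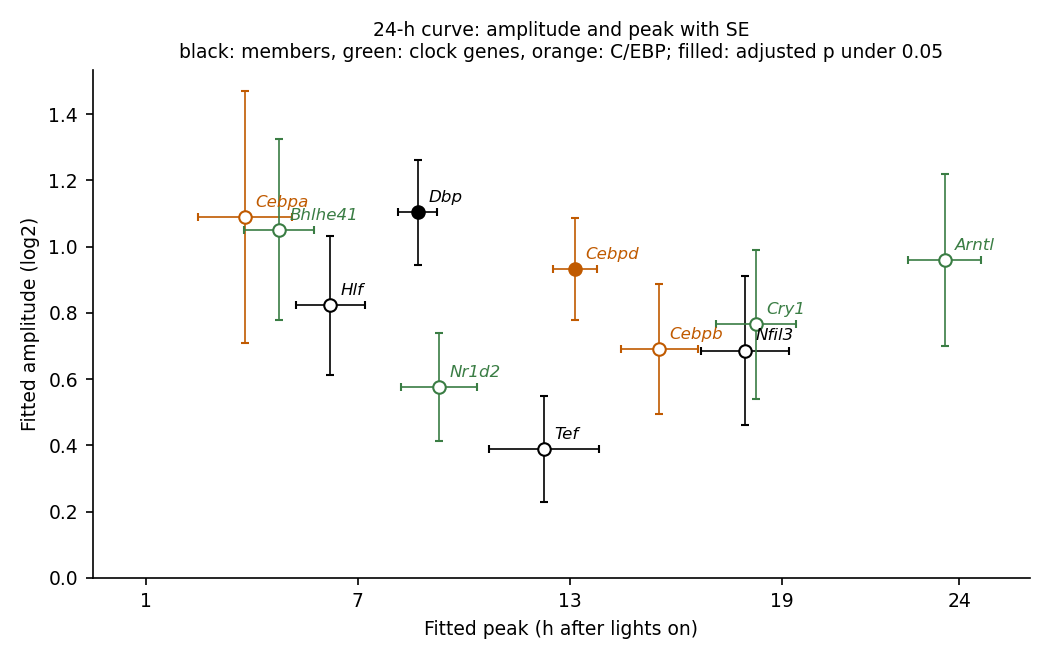
Fitted log2 amplitude (vertical axis) against fitted peak (horizontal axis, h after lights on) of the 24-h curve for the members (black), 4 clock genes (green) and 3 C/EBP genes (orange), each with its SE in both directions. Filled points, Dbp (1.10 at 8.69 h) and Cebpd (0.93 at 13.1 h), have an adjusted p under 0.05. Cyp2a4 is left out because its ZT19 libraries are at 0.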

How the data were processed

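RNA-seq was performed on sorted dermal LECs. The authors generated full-length cDNA with the SMART-Seq v4 kit, which marks neither strand nor single molecules. They aligned single-end reads to mm10 with STAR and deposited raw counts per gene from HTSeq-count (Galaxy version 1.0.0). The annotation and strand setting are not given in the sources used here. The study compared time points with DESeq2 (Galaxy version 2.11.40.6). For clock gene counts it used analysis of variance and cosinor analysis, and it reports strong oscillations of Bmal1 (Arntl here) and Per2.

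Counts were taken as deposited. Rows that name no gene (no feature, ambiguous, not unique, not aligned) were left out of library sizes and tests. After filterByExpr by time point and TMM normalization, 19209 genes were fitted with edgeR 4.0.16 (glmQLFit, glmQLFTest, R 4.3.3) over all 20 libraries, with 1 mean per time point, 6 pairwise contrasts, or a cosine and sine term with a period of 24 h, and Benjamini-Hochberg adjustment over all genes tested at a threshold of 0.05. No p was given for the ratios, which used a pseudocount of 1. The script was tested on simulated data. The labels give each library only a time point and a number, so p-values measure the spread between these libraries. Intervals and floors (3 counts per library) cover counting error only.

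The members and the gene lists (D-box, E-box, C/EBP, cell type markers) were chosen with earlier results of these data known. Named beyond the members were every gene of the 3 lists past the threshold or otherwise the 3 with the smallest p among the time points per list, and for each member the 5 genes with the highest r. Sphk2, which overlaps Dbp, was added after its values were seen. Positions, exon lengths and overlaps are from GENCODE M21 (GRCm38), matched by symbol for 4 of 4 members, and promoters from RefSeq (GRCm38.p6), which held 4 of 4. Alternatives were DESeq2 1.42.0, RLE and upper-quartile normalization, other filters, a replicate block, the share of reads on genes or a keratinocyte score as covariate, only the 2 time points compared, and leaving out each library. Leaving out the 6 libraries with a share over 50% was chosen after seeing the data.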

Additional observations from a re-analysis of the deposited data

Results flagged for a closer look

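In groups of 5 libraries, 1 library stood apart from the other 4 in 3 of 48 gene and time point groups (12 genes), where chance gives about 2.4. Tef at ZT1 was lowest in replicate 5 (1039 normalized counts, 434 counts), and its gap to the next library was 0.712 of the range on the log2 scale, against a critical value of 0.71. That library had the lowest share of reads on genes at ZT1 (20.2%). At ZT7 replicate 2, the library with the highest share there (62.3%), stood apart for both other genes. Arntl was highest in it (405 normalized counts, a gap of 0.715 of the range) and Bhlhe41 lowest (50.9 normalized counts, 89 counts, a gap of 0.770). None of these groups enters a called comparison of Dbp, Hlf, Tef or Nfil3. The part of the share of reads on genes in these values was not tested.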

How the results depend on the processing

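Dbp differed among the 4 time points under every alternative that was run (adjusted p up to 0.0473), and the direction of its called differences did not change in any. Its 24-h curve did not pass with the replicate block (adjusted p = 0.0630) or without the 6 high-share libraries (adjusted p = 0.0647), and ranged from 0.00772 to 0.0536 when single libraries were left out, above the threshold only without ZT7 replicate 3. With DESeq2 the adjusted p of Hlf was 0.0134 among the time points and 0.0166 for the curve, and with single libraries left out of the edgeR fit it was 0.0473 to 0.351 among the time points. Tef and Nfil3 passed under no alternative. The number of members called among the time points was 2 with DESeq2 and 1 to 2 with single libraries left out, and for the curve 2 with DESeq2, 0 with the block, 0 without the high-share libraries and 0 to 1 with single libraries left out.

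Of 24 member and pair combinations, 4 passed with DESeq2, 2 with RLE, 3 with upper-quartile normalization, 3 with the share of reads as covariate, 0 with the block, 0 with only the 2 time points compared in the fit (Dbp from ZT7 to ZT19 -1.96, adjusted p = 0.183), 0 without the high-share libraries and 0 to 2 with single libraries left out. Those called were differences of Dbp, and with DESeq2 also that of Hlf from ZT7 to ZT19 (-1.85, adjusted p = 0.00143). The shares of all genes called in the same pairs under these alternatives are not given here, so a larger count is not read as a stronger result. RLE and upper-quartile scaling shifted time points against each other by up to 0.20 and 0.25 log2 units relative to TMM. DESeq2 called 2 D-box genes in each test, 3 and 2 E-box genes, and 2 C/EBP genes, Cebpa and Cebpd, among the time points. C/EBP calls were 0 in both tests with the block, with the keratinocyte covariate and without the high-share libraries, and 0 to 1 with single libraries left out. The ZT7 to ZT19 differences of the ratios to Nfil3, the ones recomputed, moved by less than 1 SD with a pseudocount of 10 or with single libraries left out. The causes of these changes were not tested.

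Over all genes, the number called was 81 among the time points and 6 for the curve with edgeR, 599 and 74 with DESeq2, 31 and 0 with the block, 49 and 3 with the share as covariate, 52 among the time points with upper-quartile scaling, 2 with the keratinocyte covariate and 29 without the high-share libraries. With single libraries left out it was 30 to 178 and 0 to 10. Libraries shared only a number across time points: the mean correlation of the deviations of same-numbered libraries was -0.04 to 0.17, and a library correlated best with its own number in 14 of 60 checks, so the block result is given here alone. The lowest depth, 4475111 counts on genes, belonged to ZT7 replicate 3.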
